A study of Mus musculus with 18 samples.

Results

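The genes of the Wnt pathway's extracellular layer were read on Affymetrix arrays in mouse embryonic fibroblasts treated with TGF-β1. The set held every gene whose single symbol in the array annotation names a Wnt ligand, a Frizzled receptor (Fzd), a secreted Frizzled-related protein (Sfrp), a Dickkopf protein (Dkk) or an R-spondin (Rspo). It held 41 of the 18194 genes with a single symbol on the array, namely 19 Wnt, 10 Fzd, 4 Sfrp, 4 Dkk and 4 Rspo genes. Each gene was represented by its brightest probe set, a group of probes for 1 transcript, by the mean over the 18 arrays. Genes entered the test if this probe set exceeded the array's 40th percentile, a log2 value between 4.16 and 4.25, on at least 3 arrays. This left 33 members in the test, 16 Wnt, 10 Fzd, 3 Sfrp, 2 Dkk and 2 Rspo genes, among 13679 tested genes.

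Wnt proteins are secreted lipid-modified ligands that bind Frizzled receptors together with the co-receptors Lrp5 and Lrp6 and stabilise β-catenin, or act through Ror, Ryk and planar cell polarity proteins without it. R-spondins bind Lgr receptors and keep Frizzled receptors on the cell surface by removing the ubiquitin ligases Rnf43 and Znrf3. Sfrp proteins bind Wnt ligands outside the cell, and some Dickkopf proteins block the Lrp co-receptors. In embryonic mesenchyme these genes take part in limb, skeletal and muscle patterning.

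The cells were primary fibroblasts from 14-day embryos, grown from the tissue that remained after removal of head and liver. Of the 6 embryos 3 were wild type and 3 carried a knock-out label for Nfic, which encodes the transcription factor NFI-C. The labels do not say how the allele was made. All cultures stood in medium with AlbuMAX II and insulin, transferrin and selenium before treatment, so these additions are common to every group. Each embryo gave an untreated culture and cultures with TGF-β1 at 12.5 ng/ml, for 1 h to see the immediate response and for 10 h to see the delayed one. There were thus 6 groups of 3 arrays: wild-type untreated, wild-type 1 h, wild-type 10 h, and the same 3 for cells labelled knock-out. The 1 h and 10 h comparisons of a genotype share their untreated arrays, and without an untreated 10 h culture in the data used, time in culture and TGF-β1 cannot be told apart at 10 h. Values are log2 expression, SD and n refer to the 3 embryos of a group, and differences are log2 fold changes ± the standard error of limma, called at a Benjamini-Hochberg adjusted p under 0.05 over all 13679 genes.

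The arrays of a group correlated at 0.987 to 0.995 over all probe sets. The targeted gene did not check the labels, since the brightest Nfic probe set read 10.19 to 10.77 on wild-type arrays and 9.89 to 10.72 on arrays labelled knock-out, and the deleted stretch of Nfic is not known from the labels. None of its 5 probe sets was lower without overlap. Deviations from the group means correlated between the untreated and the 10 h array of an embryo at 0.282 to 0.388 for the labelled knock-outs and at 0.487 for wild-type embryo 1, but at -0.064 and -0.204 for wild-type embryos 2 and 3. The pairing of the wild-type 10 h arrays of embryos 2 and 3 with their untreated arrays is thus in doubt. So are wild-type values with embryo as a block, the spread of wild-type means per embryo, and fits without wild-type embryo 2 or 3. The group means do not use the pairing. Of the 10 fibroblast markers 10 were tested, and their mean level lay between 11.23 and 12.04 on all arrays. All 10 macrophage markers were also tested, with mean levels from 7.87 to 10.49, highest in embryo 1 of either genotype. Of the endothelial markers 3 of 8 were tested, of the epithelial ones 6 of 9 and of the skeletal muscle ones 3 of 8. Pecam1, Cdh5, Tek, Tie1 and Vwf, Krt14, Cdh1 and Trp63, and Myod1, Myog, Myf5, Pax7 and Myh3 did not pass the filter. Kdr, Emcn and Egfl7, Krt5, Krt8, Krt18, Krt19, Epcam and Dsp, and Des, Acta1 and Ckm passed, with Acta1 at 8.07 to 11.03. Of the 7 neural and glial markers on the array 6 were tested, all but Sox2, with Nes at 8.43 to 10.69. Absence of a cell type was not tested.

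After 1 h of TGF-β1 a single member changed. Wnt9a, a ligand gene active in joint and skeletal development, rose in every embryo of both genotypes. In wild-type embryos 1, 2 and 3 it read 7.90, 7.61 and 7.95 untreated and 9.32, 9.45 and 9.49 at 1 h. In those labelled knock-out it read 7.58, 7.88 and 8.12 untreated and 9.23, 9.32 and 9.46 at 1 h. The treated and untreated values did not overlap in either genotype, and the spread of the treated arrays was small (SD 0.09 and 0.12, n = 3 each). The rise was 1.60 ± 0.17, or 3.03-fold, in wild type (limma adjusted p = 7.0e-05) and 1.47 ± 0.17, or 2.77-fold, in cells labelled knock-out (1.8e-04). Of the 33 tested members 1 was thus called, against 0.585% of all tested genes in wild type (0.504% higher and 0.0804% lower) and 0.490% in cells labelled knock-out (0.417% higher and 0.0731% lower).

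Wnt9a was still raised at 10 h. It read 8.81, 9.48 and 9.17 in wild type and 8.93, 9.38 and 9.21 in cells labelled knock-out. Against untreated cells this was 1.33 ± 0.17 in wild type (limma adjusted p = 2.2e-05) and 1.31 ± 0.17 in cells labelled knock-out (2.3e-05). The step from 1 h to 10 h was -0.27 ± 0.17 and -0.16 ± 0.17, with overlapping values and no call (limma adjusted p = 0.251 and 0.50). Each of these 4 calls against untreated cells held under all 16 other settings of filter, scaling, probe set rule, model and embryos. The mean of both probe sets gave a smaller rise, 0.98 at 1 h in wild type. A second, dimmer Wnt9a probe set, whose 18 values lay between 3.93 and 5.52, was at 0.35 ± 0.26 and 0.50 ± 0.26 at 1 h and at 0.62 ± 0.26 and 0.82 ± 0.26 at 10 h in wild type and labelled knock-out. Only the last of these was called in the fit over all probe sets (limma adjusted p = 0.967, 1.00, 0.0945 and 0.0300).

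The other 32 tested members gave no call at 1 h. The closest to a call were Fzd4 in wild type, at -0.33 ± 0.12 (limma adjusted p = 0.491), and Sfrp5 in cells labelled knock-out, at 0.17 ± 0.08 (1.00). With the response averaged over both genotypes, a comparison added after the data were seen, Wnt9a remained the single call at 1.53 ± 0.12 (limma adjusted p = 9.8e-07), against 1.29% of all tested genes (0.965% higher and 0.322% lower).

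The promoters of the ligand and receptor genes with the clearest changes are shown so that the region upstream of each can be read beside its values. They are RefSeq sequences of build GRCm38.p6, 250 bases before to 50 after the annotated start, given 5′ to 3′ on the strand of the gene, with motif matches in capitals. Wnt9a (chr11:59306680-59306979, plus strand) was the member that rose at 1 h, and Wnt11 (chr7:98834862-98835161, plus strand) the ligand with the largest rise at 10 h. Fzd1 (chr5:4758167-4758466, minus strand) and Fzd4 (chr7:89404116-89404415, plus strand) were the receptors with the largest falls.
Wnt9a: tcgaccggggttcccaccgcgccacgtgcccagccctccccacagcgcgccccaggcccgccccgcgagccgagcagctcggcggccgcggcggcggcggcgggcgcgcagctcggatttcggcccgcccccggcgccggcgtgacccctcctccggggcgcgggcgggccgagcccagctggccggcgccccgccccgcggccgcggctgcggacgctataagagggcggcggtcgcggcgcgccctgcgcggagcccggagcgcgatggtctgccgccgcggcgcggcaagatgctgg
Wnt11: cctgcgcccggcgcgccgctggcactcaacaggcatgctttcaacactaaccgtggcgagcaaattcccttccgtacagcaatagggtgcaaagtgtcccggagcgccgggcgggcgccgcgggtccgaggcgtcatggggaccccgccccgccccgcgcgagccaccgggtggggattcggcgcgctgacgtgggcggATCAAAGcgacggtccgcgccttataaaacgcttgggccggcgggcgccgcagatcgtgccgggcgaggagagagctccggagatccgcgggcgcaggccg
Fzd1: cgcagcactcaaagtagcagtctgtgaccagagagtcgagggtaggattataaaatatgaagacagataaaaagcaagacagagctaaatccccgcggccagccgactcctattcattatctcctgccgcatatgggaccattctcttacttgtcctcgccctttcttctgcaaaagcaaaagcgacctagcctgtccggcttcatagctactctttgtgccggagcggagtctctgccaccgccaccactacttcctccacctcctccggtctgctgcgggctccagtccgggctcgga
Fzd4: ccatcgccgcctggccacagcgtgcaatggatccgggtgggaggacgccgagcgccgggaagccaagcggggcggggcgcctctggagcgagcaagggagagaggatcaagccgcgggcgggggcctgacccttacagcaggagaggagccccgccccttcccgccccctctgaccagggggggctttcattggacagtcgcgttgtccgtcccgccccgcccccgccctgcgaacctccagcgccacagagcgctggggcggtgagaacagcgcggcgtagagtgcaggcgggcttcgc
The Wnt11 window is that of the first of 2 annotated starts, and its capitals are a TCF/LEF letter match on the minus strand.

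Promoter windows were matched for 27 of the 41 members, 30 windows in all, and were searched on both strands. The SMAD palindrome GTCTAGAC was in 0 of the 30 windows and in 0.213% of all 32851 windows of the same length. The SMAD letters CAGACA were in 3 (Sfrp2, Wnt7a and Wnt1) and in 21.0% of all windows, the short NFI letters TTGGCA in 1 (Wnt5b) and in 14.1%. The TCF/LEF letters CTTTGAT were in 2 (Wnt5b and Wnt11) and in 3.73%, and the full palindromic NFI site, which contains most of the short one, in 0 and 0.0365%. None of these motifs was found in the windows of Wnt9a, Fzd1 and Fzd4, which says only that these letters are not there. The member windows were rich in G and C, with a median of 69.8% against 52.7% for all windows, and that of Wnt9a held 83.3% with 58 CpG dinucleotides.

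At 10 h, 4 ligand genes rose, 6 of the 10 Frizzled receptor genes fell and both tested R-spondin genes fell in either genotype. In wild type 9 of the 33 tested members rose, 8 fell and 16 were not called. Cells labelled knock-out had 5 that rose, 8 that fell and 20 without a call. The share called was 51.5% in wild type, against 33.7% of all tested genes, and 39.4% in cells labelled knock-out, against 34.7%, which is near the background. The median change over the 33 members was 0.14 in wild type and 0.01 in cells labelled knock-out, against 0.01 and -0.03 over all tested genes. In a mixed culture, fewer cells of a type and less RNA per cell cannot be told apart. The mean level of the macrophage markers ranged from 8.87 to 10.49 over untreated wild-type cultures and from 8.06 to 10.12 over those at 10 h, against 8.08 to 9.85 and 7.87 to 9.54 where the label was knock-out. Of these 10 markers 1 fell in wild type, Mrc1 at -2.15 ± 0.79, and 0 in cells labelled knock-out, where Mrc1 was at -1.54 ± 0.79. Standard errors of these markers were 0.56 to 0.79, so the missing calls say little. In embryos 1, 2 and 3 labelled knock-out their mean was 9.85, 8.08 and 8.55 untreated and 9.54, 7.87 and 8.34 at 10 h. In wild type it was 10.49, 8.92 and 8.87 against 10.12, 8.06 and 8.79, with the pairing of embryos 2 and 3 in doubt. Of the fibroblast markers 2 and 1 of 10 fell. Pdgfra was at -2.48 and -2.57, and Lum at -1.34 and, without a call, -0.94. The mean fibroblast marker level ranged from 11.83 to 12.04 over untreated wild-type cultures and from 11.33 to 11.54 over those at 10 h. Where the label was knock-out, these ranges were 11.51 to 11.84 and 11.23 to 11.51. Of the tested muscle markers 2 and 1 of 3 rose, and of the tested epithelial markers 1 and 3 of 6 rose. Of the 6 tested neural and glial markers 1 rose and 1 fell in each genotype, Nes by 1.79 and 1.87 and Map2 at -1.82 and -1.08. The part of these markers in the changes of the Wnt genes was not tested. Centring each array on the median of the tested genes raised every 10 h change by 0.14 in either genotype. The members called were then 12 higher and 7 lower in wild type and 9 higher and 7 lower in cells labelled knock-out. The share of calls that were higher went from 52.9% to 63.2% and from 38.5% to 56.2%. The same shift applied to all tested genes, whose shares after centring are not given here, so this move is not read as particular to the members.

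Of the 16 tested ligand genes 6 rose and 0 fell in wild type, against 14.9% of all tested genes higher and 18.8% lower. In cells labelled knock-out 4 rose and 0 fell, against 13.9% and 20.7%. In either direction 37.5% and 25% of the ligand genes were called, against 33.7% and 34.7% of all tested genes. Wnt11, a ligand that acts largely without β-catenin and guides cell movement in the embryo, had the largest rise. It read 5.67, 5.95 and 6.09 in the untreated wild-type embryos and 7.53, 8.25 and 7.91 at 10 h. In those labelled knock-out it read 6.42, 6.19 and 5.99 untreated and 8.25, 7.50 and 7.25 at 10 h. The 10 h arrays stood above all untreated arrays in both genotypes, while at 1 h the means were still 6.00 and 6.24. The rise was 1.99 ± 0.23, or 3.98-fold, in wild type (limma adjusted p = 7.8e-06) and 1.47 ± 0.23, or 2.76-fold, in cells labelled knock-out (1.2e-04).

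**Figure D1:**
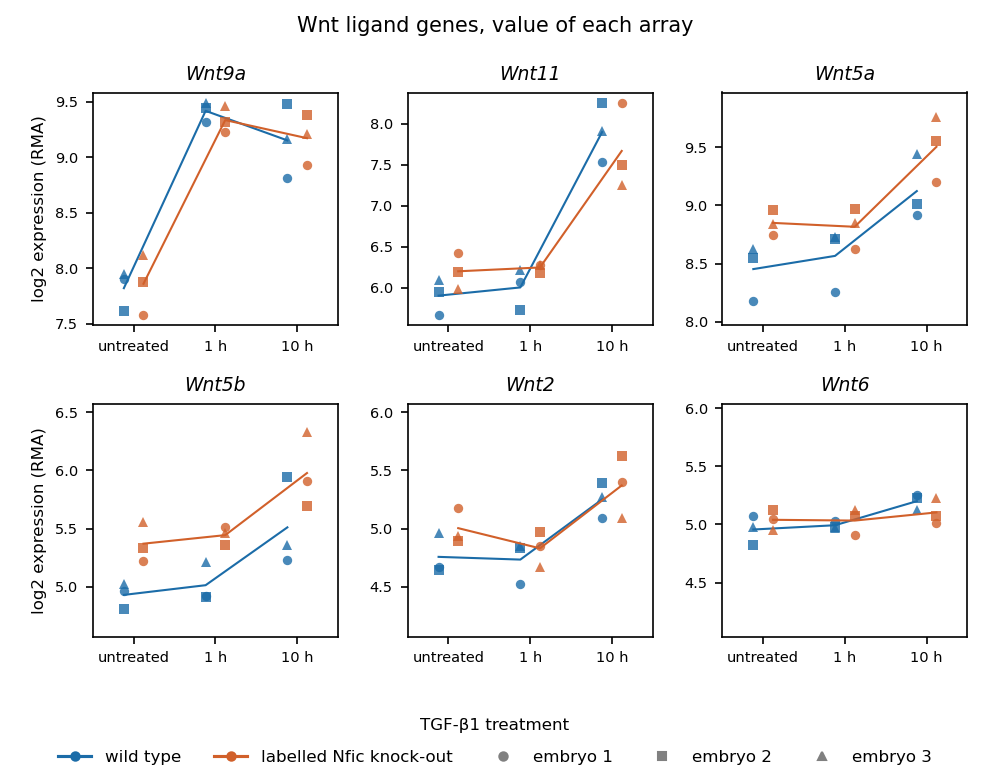
Log2 expression (vertical axis, its range set for each gene) of the 6 ligand genes called at 10 h in wild type, by TGF-β1 treatment (horizontal axis). Each point is 1 array, its shape the embryo, and lines join the means of 3; Wnt9a is raised at 1 h and 10 h, and Wnt11 and Wnt5a at 10 h.

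Wnt5a and Wnt5b, closely related ligands of the β-catenin-independent branch, rose together. Wnt5a read 8.18, 8.55 and 8.63 in untreated wild-type cells and 8.92, 9.01 and 9.44 at 10 h, a rise of 0.67 ± 0.18 (limma adjusted p = 0.00879). In cells labelled knock-out it went from 8.75, 8.96 and 8.84 to 9.20, 9.55 and 9.76, a rise of 0.65 ± 0.18 (0.00923). In neither genotype did the treated and untreated arrays overlap, and 3 of its 4 probe sets were called higher in both. Without knock-out embryo 3 the call in cells labelled knock-out was lost (limma adjusted p = 0.117).

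Wnt5b read 4.96, 4.81 and 5.02 untreated and 5.23, 5.94 and 5.36 at 10 h in wild type, a rise of 0.58 ± 0.18 (limma adjusted p = 0.0184). Cells labelled knock-out read 5.22, 5.33 and 5.56 untreated and 5.91, 5.69 and 6.33 at 10 h, a rise of 0.61 ± 0.18 (0.0139). The values lay low on the scale and did not overlap between the treatments. The call was lost in wild type without wild-type embryo 2 and in cells labelled knock-out without knock-out embryo 1 or 3. It was also lost in wild type when only the compared groups were fitted, and in both genotypes with the most variable probe set. That second probe set was at 0.77 ± 0.31 and 0.68 ± 0.31 without a call (limma adjusted p = 0.0832 and 0.131 in the probe set fit).

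Wnt2, a ligand of early mesenchyme, read 4.67, 4.64 and 4.96 untreated and 5.09, 5.39 and 5.27 at 10 h in wild type, a rise of 0.49 ± 0.14 (limma adjusted p = 0.0156). Cells labelled knock-out read 5.18, 4.89 and 4.94 untreated and 5.40, 5.62 and 5.09 at 10 h, which overlapped, and the change of 0.37 ± 0.14 was not called (0.0625), but it was with embryo as a fixed or a random block (limma adjusted p = 0.0244 and 0.0316). Without wild-type embryo 2 the call in wild type was lost (0.173). Wnt6, an ectodermal ligand, read 5.07, 4.82 and 4.98 untreated and 5.25, 5.23 and 5.12 at 10 h in wild type, and 5.05, 5.12 and 4.95 against 5.01, 5.07 and 5.23 in cells labelled knock-out. It moved by 0.25 ± 0.09 in wild type (0.0441), a change that 9 of 14 alternatives no longer called, the omission of any wild-type embryo among them, and by 0.06 ± 0.09 in cells labelled knock-out.

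The remaining 10 tested ligand genes were Wnt1, Wnt2b, Wnt3a, Wnt4, Wnt7a, Wnt7b, Wnt9b, Wnt10a, Wnt10b and Wnt16. None was called in the main fit in either genotype. Wnt10b was at 0.30 ± 0.16 in wild type (limma adjusted p = 0.160), with a call when embryo was a fixed block (0.0314) and none when it was a random block (0.0852). Centring of the arrays also gave a call in wild type for Wnt10b at 0.44 (limma adjusted p = 0.0487) and Wnt7a at 0.37 (0.0240). In cells labelled knock-out it gave one for Wnt7b at 0.39 (0.0224). A dimmer Wnt7a probe set was called in wild type, at 0.31 (0.0426 over all probe sets). The values of these 10 genes lay between 3.72 (Wnt1) and 6.61 (Wnt7a) on all arrays. Low values with little movement were seen in Wnt3a, a typical ligand of the β-catenin branch, which stayed between 4.18 and 4.67. Wnt3a is the gene next to Wnt9a among protein-coding genes of the RefSeq table (GRCm38.p6, chromosome 11), and its 10 h change in wild type was 0.08 beside 1.33 for Wnt9a. The other neighbouring ligand pairs were Wnt6 and Wnt10a (0.25 and 0.10), Wnt10b and Wnt1 (0.30 and 0.21), and Wnt9b and Wnt3, the latter not tested. Wnt3, Wnt8a and Wnt8b did not pass the filter and lay between 2.83 and 3.82.

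All 10 Frizzled receptor genes were tested, and 9 of them changed at 10 h in wild type. In wild type 6 fell and 3 rose, against 18.8% of all tested genes lower and 14.9% higher. In cells labelled knock-out the same 6 fell and 1 rose, against 20.7% and 13.9%. The median change of the family was -0.54 and -0.52. Fzd1, Fzd2 and Fzd7 form the subfamily most often linked to β-catenin signalling, and all fell.

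Fzd1 read 11.28, 11.13 and 10.97 in untreated wild-type cells and 10.18, 9.51 and 10.16 at 10 h, a fall of 1.18 ± 0.17 on the log2 scale, or 2.26-fold (limma adjusted p = 6.0e-05). In cells labelled knock-out it read 11.13, 11.05 and 11.06 untreated and 9.82, 10.30 and 10.15 at 10 h (-0.99 ± 0.17, 2.6e-04). Every 10 h array lay below every untreated one. A dimmer probe set was at -0.79 ± 0.33 and -0.62 ± 0.33, without a call (limma adjusted p = 0.0939 and 0.197 in the probe set fit).

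Fzd2 read 10.52, 10.68 and 10.72 untreated and 9.62, 9.77 and 9.95 at 10 h in wild type (-0.86 ± 0.15, limma adjusted p = 3.2e-04). Cells labelled knock-out read 10.51, 10.59 and 10.37 against 9.14, 9.90 and 9.58 (-0.95 ± 0.15, 1.2e-04). The groups did not overlap, and each of the 3 Fzd2 probe sets was called lower in both genotypes, at -0.86 to -1.17 in wild type and -0.95 to -1.36 in cells labelled knock-out. Fzd7 read 8.74, 8.77 and 8.55 against 8.36, 7.83 and 8.34 in wild type, and 8.63, 8.68 and 8.58 against 7.78, 8.58 and 8.12 in cells labelled knock-out. Its changes were -0.51 ± 0.17 (0.0314) and -0.47 ± 0.17 (0.0435), and the groups overlapped in the latter. A dimmer probe set was at 0.08 ± 0.15 and -0.10 ± 0.15, and centring of the arrays ended the call in both genotypes. Omitting wild-type embryo 1 or 2 ended it in wild type, as did omitting knock-out embryo 3 in both and knock-out embryo 1 or wild-type embryo 1 or 3 in cells labelled knock-out.

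Fzd4, the receptor for norrin and for several Wnt ligands, fell in every embryo. It read 7.62, 7.71 and 7.69 untreated and 6.22, 6.64 and 6.65 at 10 h in wild type (-1.17 ± 0.12, limma adjusted p = 2.4e-06). In cells labelled knock-out it read 7.51, 7.49 and 7.54 against 6.39, 6.59 and 6.47 (-1.03 ± 0.12, 7.7e-06). The untreated values lay close together and far from the 10 h values in either genotype, and a second probe set was called lower in both as well.

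Fzd5 and Fzd8, related receptors of early development, fell in both genotypes. Fzd5 read 7.74, 7.61 and 7.82 untreated and 6.73, 7.40 and 6.92 at 10 h in wild type, and 7.94, 7.83 and 7.56 against 7.10, 7.31 and 7.22 in cells labelled knock-out. The changes were -0.71 ± 0.14 (limma adjusted p = 0.00121) and -0.57 ± 0.14 (0.00564), and without knock-out embryo 1 the latter was lost (0.109). The mean of its probe sets was not called in wild type (limma adjusted p = 0.0611). Its dimmer probe set moved by 0.15 ± 0.10 in wild type and -0.16 ± 0.10 in cells labelled knock-out, without a call. Fzd8 read 8.17, 7.92 and 8.28 against 7.62, 7.75 and 7.29 in wild type, and 8.65, 8.34 and 8.18 against 7.49, 7.63 and 7.51 in cells labelled knock-out, without overlap. It changed by -0.57 ± 0.16 in wild type (0.00987) and -0.85 ± 0.16 in cells labelled knock-out (5.4e-04), and its second probe set was called lower in both. The Fzd8 call in wild type was lost without wild-type embryo 3 (0.166).

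Fzd6, Fzd9 and Fzd10 rose in wild type, and Fzd9 in cells labelled knock-out as well. Fzd6, known as a planar polarity receptor and a brake on β-catenin signalling, read 8.49, 8.79 and 8.46 untreated and 9.06, 8.94 and 9.15 at 10 h in wild type. Cells labelled knock-out read 8.41, 8.80 and 8.53 untreated and 8.63, 9.19 and 9.12 at 10 h, and these overlapped. The change was 0.47 ± 0.15 in wild type (limma adjusted p = 0.0264) and 0.40 ± 0.15 in cells labelled knock-out, where it was not called (0.0545), though it was with embryo as a fixed or a random block (limma adjusted p = 0.0125 and 0.0240) and under some other settings. The call in wild type was lost without wild-type embryo 1 or 3 and with the most variable probe set, which was at 0.89 ± 0.37 and 0.75 ± 0.37 (limma adjusted p = 0.0960 and 0.165 in the probe set fit). A further Fzd6 probe set was at 0.04 ± 0.10 and 0.06 ± 0.10. Fzd9 read 4.20, 4.23 and 4.35 against 4.71, 5.02 and 4.76 in wild type, and 4.46, 4.41 and 4.24 against 4.60, 4.67 and 4.66 in cells labelled knock-out. Its rises were 0.57 ± 0.09 (2.2e-04) and 0.27 ± 0.09 (0.0333), and without any 1 of the 3 knock-out embryos the latter was not called. Its values sat at the filter level, and 2 of the 18 arrays lay below that level. Fzd10 read 6.09, 6.07 and 6.15 against 6.48, 6.51 and 6.20 in wild type, and 6.21, 6.35 and 6.18 against 6.48, 6.22 and 6.48 in cells labelled knock-out, which overlapped. It changed by 0.29 ± 0.10 in wild type (0.0252), which was lost without wild-type embryo 1 or 2, and by 0.15 ± 0.10 in cells labelled knock-out. After centring of the arrays Fzd10 was called in cells labelled knock-out as well, at 0.29 (limma adjusted p = 0.0460). Fzd3 was the receptor without a call in either genotype, at -0.36 ± 0.21 and -0.15 ± 0.21.

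**Figure D2:**
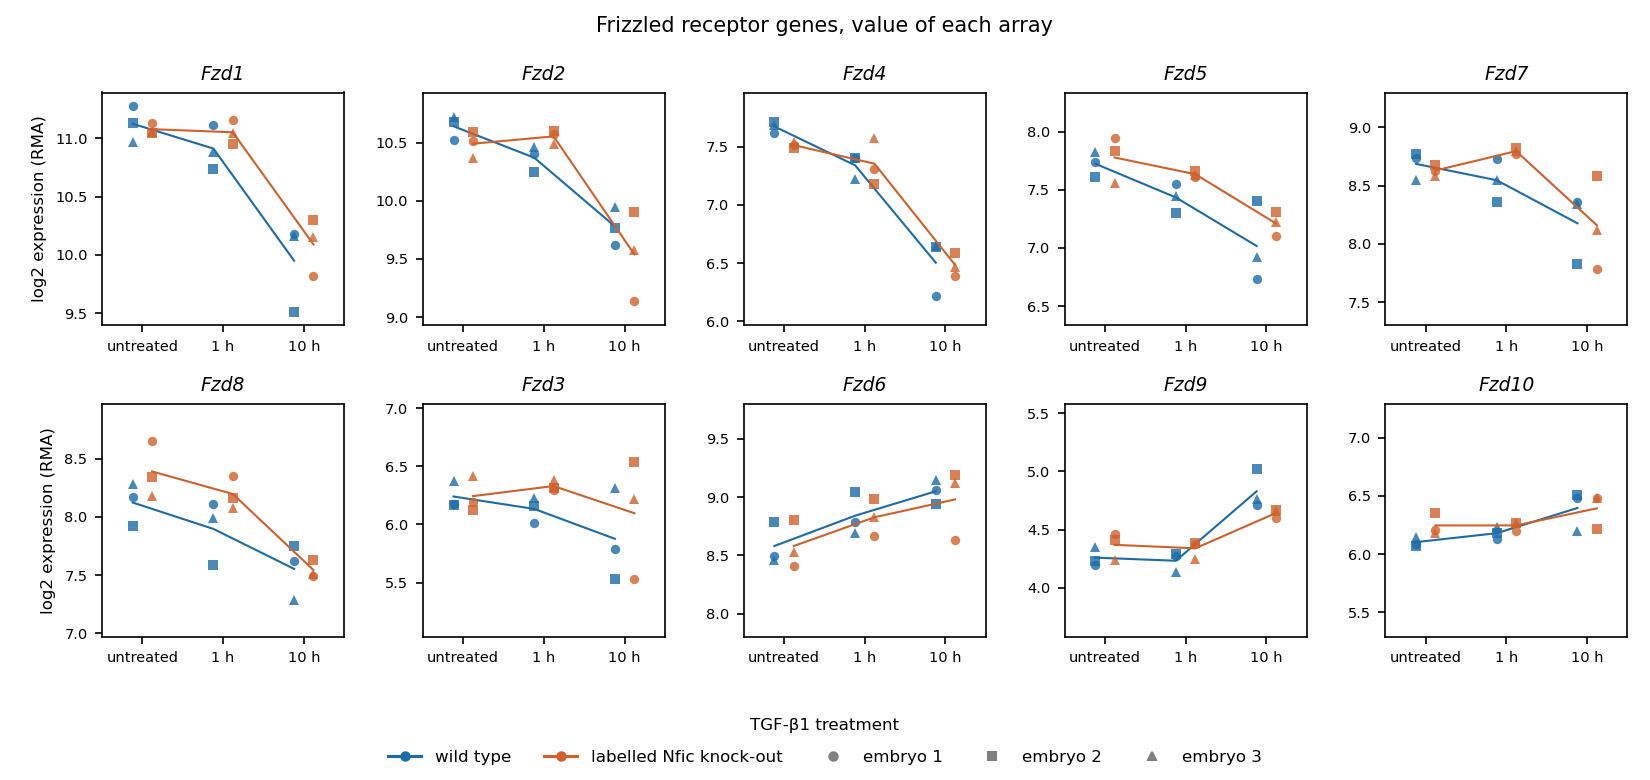
Log2 expression (vertical axis, its range set for each gene) of the 10 Frizzled genes on each array, by TGF-β1 treatment (horizontal axis); shapes are embryos and lines join the means of 3. The 10 h means of Fzd1, Fzd2, Fzd4, Fzd5, Fzd7 and Fzd8 lie below the untreated means in both genotypes, and those of Fzd6, Fzd9 and Fzd10 above.

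The R-spondin genes had the largest changes of all members. Rspo2, a Wnt agonist needed for limb and lung development, read 9.79, 8.92 and 9.76 in untreated wild-type cells followed by 9.87, 9.18 and 9.89 at 1 h and by 4.80, 5.98 and 5.14 at 10 h. In cells labelled knock-out it read 9.59, 9.46 and 9.06 untreated, 9.56, 9.41 and 9.18 at 1 h, and 5.84, 5.44 and 4.88 at 10 h. The fall thus lay between the 1 h and the 10 h array in all 6 embryos. It was -4.18 ± 0.31, or 18.1-fold, in wild type (limma adjusted p = 1.3e-07) and -3.99 ± 0.31, or 15.8-fold, in cells labelled knock-out (2.1e-07).

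The 2 Rspo2 probe sets disagreed. The values above come from the brighter one. The dimmer one lay between 4.78 and 5.21 on all 18 arrays. In wild type it read 4.91, 4.83 and 4.97 untreated and 5.13, 5.20 and 5.21 at 10 h, in cells labelled knock-out 4.87, 5.13 and 5.03 against 4.99, 5.18 and 5.13. In the fit over 29020 probe sets it was called higher in wild type at 0.27 ± 0.09 (limma adjusted p = 0.0309) and not in cells labelled knock-out at 0.09 ± 0.09 (0.530), while the brighter set was called lower in both (3.2e-07 and 4.8e-07). The whole range of the dimmer set was 0.43, against 5.09 for the brighter one. The positions of the probes within the transcript were not used here, so which transcripts each set reads was not tested.

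Rspo3, a second R-spondin gene with roles in vessel and placenta development, fell as well. In wild type it read 9.33, 8.68 and 8.81 untreated and 6.84, 6.69 and 6.53 at 10 h (-2.25 ± 0.18, or 4.77-fold, limma adjusted p = 3.1e-07). Cells labelled knock-out read 9.17, 8.76 and 9.02 against 7.06, 7.26 and 6.80 (-1.94 ± 0.18, or 3.85-fold, 1.2e-06). At 1 h all 6 arrays were still between 8.61 and 9.15. The calls of Rspo2 and Rspo3 held under all 16 other settings, though averaging all probe sets of a gene reduced their sizes to -1.95 and -1.19 in wild type. A second Rspo3 probe set lay between 3.62 and 4.09 and did not pass the filter. Rspo1 and Rspo4 did not pass the filter, with values from 3.35 to 4.08.

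**Figure D3:**
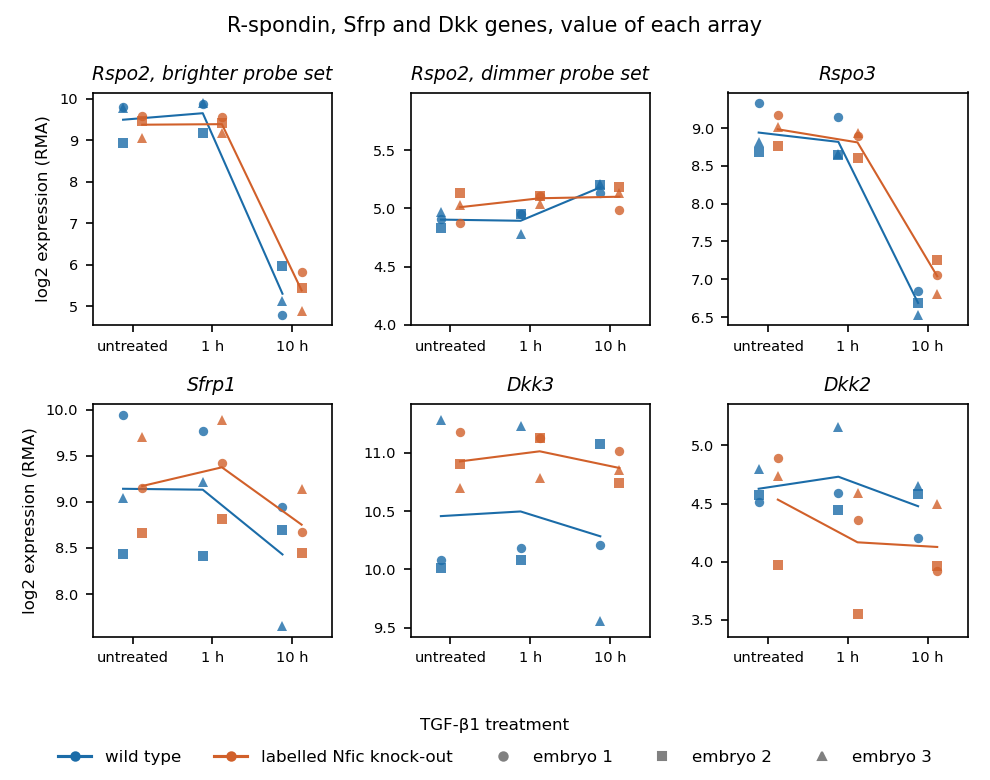
Log2 expression (vertical axis, its range set for each panel) of both Rspo2 probe sets, Rspo3, Sfrp1, Dkk3 and Dkk2 on each array, by TGF-β1 treatment (horizontal axis); shapes are embryos and lines join the means of 3. The brighter Rspo2 probe set and Rspo3 fall only between 1 h and 10 h, and the embryos of a group are spread widely in the Sfrp1 and Dkk3 panels.

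The Sfrp and Dkk genes gave no call in the main fit. Sfrp1, which binds Wnt ligands, read 9.95, 8.44 and 9.04 untreated and 8.94, 8.70 and 7.65 at 10 h in wild type. The change was -0.71 ± 0.44 (limma adjusted p = 0.228), and it was called with embryo as a fixed block but not as a random block (limma adjusted p = 0.0456 and 0.137). In cells labelled knock-out it was -0.42 ± 0.44 (0.509). Sfrp4 and Sfrp5 stayed within 0.54 and 0.31 over the 18 arrays. Centring of the arrays gave a call for Sfrp5 in wild type, at 0.28 (limma adjusted p = 0.0225). Dkk3, a divergent Dickkopf gene, read 10.08, 10.01 and 11.28 in wild type before treatment, then 10.18, 10.08 and 11.23 at 1 h, then 10.21, 11.08 and 9.56 at 10 h. Embryo 3 was thus the highest of the wild-type arrays untreated and at 1 h, and embryo 2 at 10 h. Its 10 h change was -0.17 ± 0.38 in wild type (0.755) and -0.06 ± 0.38 in cells labelled knock-out (0.929). Dkk2 changed by -0.15 ± 0.28 and -0.40 ± 0.28, without a call. Dkk1, Dkk4 and Sfrp2 did not pass the filter and lay between 3.16 and 4.32.

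Set against 1 h in place of untreated cells, a comparison added after the data were seen, fewer members were called at 10 h in wild type, and Wnt9a was called in neither genotype. In wild type Fzd9, Wnt2, Wnt5a, Wnt5b and Wnt11 were higher and Fzd1, Fzd2, Fzd4, Fzd5, Rspo2 and Rspo3 lower, 5 and 6 of 33, against 15.3% and 18% of all tested genes (33.3% in either direction). Among cells labelled knock-out the same 5 were higher and 8 members lower, with Fzd7 and Fzd8 in addition, against 13.7% and 19.7% (33.4% in either direction). Averaged over both genotypes, the 10 h response against untreated cells had 9 members higher and 8 lower, against 21.1% and 27.8% of all tested genes (48.9% in either direction). Wnt7b was among them at 0.20 ± 0.08 (limma adjusted p = 0.0498), and Wnt6 was not.

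Of the 17 members called in wild type 13 were also called in cells labelled knock-out, 76.5% of the former and all of the latter. Over all tested genes 3690 were called in both, 80% of those called in wild type and 77.8% of those called in cells labelled knock-out. The 4 called in wild type alone, Fzd6, Fzd10, Wnt2 and Wnt6, had the same sign in cells labelled knock-out. This list depends on scaling. After centring of the arrays Fzd6, Fzd10 and Wnt2 were called in cells labelled knock-out too (limma adjusted p = 0.0161, 0.0460 and 0.0153). Centring also added Wnt7b in those cells alone, and Sfrp5, Wnt7a and Wnt10b in wild type alone. Over the 33 tested members the 2 sets of 10 h changes, which share no array, gave a Pearson correlation of 0.988 and a Spearman correlation of 0.956 as a description, and 31, or 93.9%, had the same sign. Over all tested genes the correlations were 0.936 and 0.889, and 84.5% had the same sign, so a close match of the genotypes was not limited to these members. Members are not replicates, and they share the same untreated and 10 h libraries within a genotype. No member was called in limma for a genotype difference of its 10 h response, and 0 of 13679 genes were called. At an unadjusted p under 0.05 there was 1 of 33 members, against 2.23% of all tested genes. That member was Fzd9, whose rise was smaller by 0.30 in cells labelled knock-out (95% interval -0.58 to -0.02, limma adjusted p = 0.999). The widest gap was that of Wnt11 at -0.53 (-1.21 to 0.15), and Rspo2 differed by 0.19 (-0.75 to 1.14). For the 1 h response limma called 0 members, with Wnt9a at -0.13 (-0.63 to 0.38). At an unadjusted p under 0.05 there were also 0 members, against 1.7% of all tested genes.

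**Figure D4:**
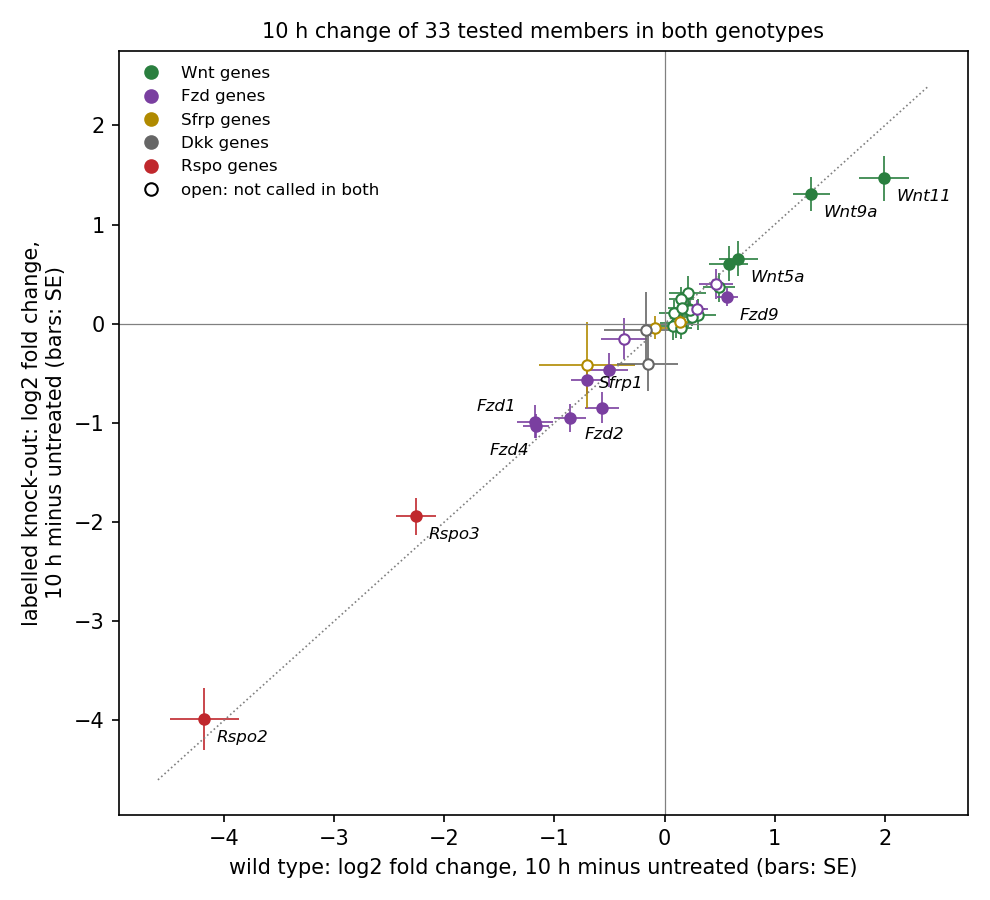
Log2 fold change at 10 h against untreated cells in wild type (horizontal axis) and in cells labelled knock-out (vertical axis) for the 33 tested members, with bars of 1 standard error and colours for the gene families. Filled points were called in both genotypes, and the dotted line marks equal change. Rspo2 at -4.18 and -3.99 and Wnt11 at 1.99 and 1.47 mark the ends, and Wnt11 has the widest gap from that line.

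Level differences between the genotypes were not called for any member. In limma 0 of the 33 were called in untreated cells, at 1 h, at 10 h or on each embryo's mean over its 3 conditions, and 0% of all tested genes were called in each. At an unadjusted p under 0.05 there were 2, 1, 2 and 3 members, against 3.36%, 6.18%, 5.27% and 4.82% of all tested genes. Wnt5b was among the members each time, but these comparisons share the same 6 embryos and are not separate support. In untreated cells its 3 arrays labelled knock-out (5.22 to 5.56) lay above the 3 wild-type arrays (4.81 to 5.02), a difference of 0.44 ± 0.18 (limma adjusted p = 1.00). On the mean per embryo the difference was 0.44 ± 0.10, again without overlap (limma adjusted p = 0.711). Wnt5a differed by 0.39 ± 0.18 in untreated cells (adjusted p = 1.00), and Dkk3 by 0.53 ± 0.15 on the mean per embryo (0.825). The standard errors and p-values on the mean per embryo use the 10 h pairing of wild-type embryos 2 and 3, which is in doubt. For Rspo2 the untreated difference was -0.12 (95% interval -0.78 to 0.55) and for Wnt9a 0.04 (-0.32 to 0.40). The macrophage markers differed between labelled knock-out and wild type by a median of -0.58 untreated, -0.59 at 1 h and -0.43 at 10 h, without a call, and their part in these values was not tested.

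The rest of the pathway changed at 10 h in both directions, and the counts of each gene list stand against 14.9% of all tested genes higher and 18.8% lower in wild type and 13.9% and 20.7% in cells labelled knock-out (33.7% and 34.7% in either direction). Of 7 tested co-receptor genes 1 rose, 2 fell and 4 were not called in either genotype, so 3 of 7 were called. Lrp6, the main co-receptor for β-catenin signalling, fell by 1.11 ± 0.27 in wild type (limma adjusted p = 0.00529) and by 0.84 ± 0.27 in cells labelled knock-out (0.0245). Ror1, a receptor for Wnt5a, fell by 1.06 ± 0.36 (0.0334) and by 1.26 ± 0.36 (0.0132). Kremen1, which binds Dickkopf proteins, rose by 0.40 ± 0.12 and 0.43 ± 0.12, and Ryk was at -0.31 ± 0.14 in wild type without a call (0.0914). Of 4 tested genes of the R-spondin receptor group 1 rose, 1 fell and 2 were not called in each genotype. Lgr4, an R-spondin receptor, fell by 1.39 ± 0.12 (6.1e-07) and by 1.65 ± 0.12 (9.1e-08), Lgr6 rose by 0.52 ± 0.14 and 0.56 ± 0.14. Znrf3, at 0.27 ± 0.17, and Lgr5, at -0.09 ± 0.17 in wild type, were not called.

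Of 10 tested genes of Wnt secretion and other secreted modulators 1 rose, 2 fell and 7 were not called in each genotype, a share near the 33.7% and 34.7% of all tested genes. Cthrc1, a secreted Wnt cofactor, rose by 0.41 ± 0.10 in wild type (limma adjusted p = 0.00536). Apcdd1, a membrane inhibitor, fell by 0.49 ± 0.13 (0.00785) and the glypican gene Gpc4 by 0.32 ± 0.09 (0.0129). Wls, the Wnt cargo receptor, was at -0.27 ± 0.13 (0.110). Of 19 tested intracellular genes 2 rose, 5 fell and 12 were not called in wild type, and 3, 5 and 11 in cells labelled knock-out, again near those shares. In wild type Cby1, a β-catenin antagonist, fell by 0.65 ± 0.08 (2.6e-05), the co-activator gene Bcl9 by 0.63 ± 0.15 and the transcription factor gene Tcf7l2 by 0.36 ± 0.10, while the kinase gene Csnk1e rose by 0.56 ± 0.09.

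Among 11 tested target genes of β-catenin 4 rose, 2 fell and 5 were not called in wild type, and 3, 2 and 6 in cells labelled knock-out, against 33.7% and 34.7% of all tested genes called. Ccn4 rose by 1.10 ± 0.12 in wild type (limma adjusted p = 4.6e-06) and 1.30 ± 0.12 in cells labelled knock-out, Nkd2, a feedback inhibitor, by 0.72 ± 0.14 and 0.91 ± 0.14, and Myc by 1.04 ± 0.22 and 1.14 ± 0.22. Twist1, a mesenchymal transcription factor gene, fell by 1.11 ± 0.14 and by 1.42 ± 0.14. Axin2, the feedback target most used as a readout of β-catenin and singled out after its values were seen, was at -0.19 ± 0.10 in wild type (0.147) and 0.20 ± 0.10 in cells labelled knock-out (0.126). Of 9 tested planar cell polarity genes 1 rose, 5 fell and 3 were not called in wild type, and 2, 5 and 2 in cells labelled knock-out, against 18.8% and 20.7% of all tested genes lower. Their median was -0.33 and -0.37, against 0.01 and -0.03 over all tested genes, with Prickle2 down by 1.46 ± 0.27 in wild type (5.9e-04), Daam2 by 1.13 ± 0.24, Vangl1 by 0.57 ± 0.10 and the formin gene Daam1 up by 0.53 ± 0.11.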

How the data were processed

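The deposited values are log2 expression, 1 per probe set and array, made by the authors with RMA, which corrects background, normalizes arrays to each other and summarizes probes, per the submitters' processing notes. That they are log2 was read from their range of 2.49 to 14.47. The version was not stated. Of 45101 probe sets 34958 carried a single symbol. Symbols of genes outside the set were updated through a RefSeq table (GRCm38.p6).

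The model was fitted in limma 3.58.1 under R 4.3.3 with a mean for each of 6 groups, 12 residual degrees of freedom and empirical Bayes moderation, two-sided, adjusted over 13679 genes. The overall genotype difference was tested on the mean of 3 arrays per embryo, 3 against 3. Within a genotype the replicate number marks the embryo per the labels, so embryo as a fixed and as a random block were alternatives, with the filter, scaling, probe set rule, moderation, samples in the fit and each embryo left out. Tests were tried on simulated data. Precision is limited by the number of arrays.

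Values of every array are given for each member called in a genotype at 1 h or 10 h, the others by size, range and counts. Up to 4 genes per pathway list were named by the smallest adjusted p in wild type at 10 h. Members, lists and tests were chosen with earlier results of these data known. The comparisons of 10 h with 1 h and the averages over genotypes were added after seeing the data. The deposited table holds no detection calls that were used here, so a tested gene is not thereby shown to be expressed.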

Additional observations from a re-analysis of the deposited data

How the results depend on the processing

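Under the alternatives the count of called members stayed at 1 for the 1 h response in either genotype and at 0 for each comparison between the genotypes, in level or in response. At 10 h it was 17 in wild type with a range of 12 to 19. In cells labelled knock-out it was 13 with a range of 9 to 17, the latter being the response averaged over both genotypes, an alternative added after the data were seen. That average called 48.9% of all tested genes, against 33.7% and 34.7% in the main fits. For the other settings the share of all tested genes at 10 h is not given here, so these counts are not read as particular to the members. Leaving out 1 embryo gave 12 to 16 and 9 to 14, and the fits without wild-type embryo 2 or 3 use the doubtful pairing. With embryo as a replicate block 19 and 15 members were called, and those gained were Sfrp1 and Wnt10b in wild type and Fzd6 and Wnt2 in cells labelled knock-out; it lost none. As a random block embryo gave 17 and 15, without the gains in wild type, where the pairing of embryos 2 and 3 at 10 h is in doubt. Between the genotypes a replicate block gave 0 members in each comparison, and 1 and 6 of all genes at 1 h and 10 h against 0 and 0 without it. Of the 32 calls of members in the 4 TGF-β1 comparisons 0 changed direction and 19 kept their call under each alternative that could be fitted. The other 13 concerned Fzd5, Fzd6, Fzd7, Fzd8, Fzd9, Fzd10, Wnt2, Wnt5a, Wnt5b and Wnt6. Without knock-out replicate 3 the members higher at 10 h in cells labelled knock-out numbered 2, against 5 with all embryos. Quantile normalization a second time called 17 and 15 members. Over all genes the 1 h calls were 80 in wild type and 67 in cells labelled knock-out. They were 47 and 39 in fits of the compared groups alone, 38 to 48 and 26 to 36 without 1 embryo of that genotype, and 101 with the replicate block in cells labelled knock-out. Averaged over both genotypes they were 176.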
